A study of Schizosaccharomyces pombe with 3 samples.

Results

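The genes described here encode enzymes that fission yeast, Schizosaccharomyces pombe, uses to make amino acids. They were taken from the probe annotation of the array by symbol: lower-case names with the stems arg, his, lys, met, trp, leu, ilv, pro, thr, ser, cys, tyr or aro followed by digits, together with eca39, gln1, gdh1, gdh2 and glt1. The rule found 46 probe sets for 46 genes, out of 2896 fission yeast genes with a name in that annotation. Below, all fission yeast genes, or all genes, means these 2896 and not the whole genome, and shares and percentiles are among them. No thr gene was among them, and the list holds only genes the annotation names, so several pathways are represented in part. No filter on signal was applied. Only probe sets annotated to a single gene were used, so a match on a probe set with several genes would not be listed.

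Wild type cells were measured on 3 Affymetrix arrays, 1 per sample, and all formed 1 group, so no condition was set against another. By its label the strain was h+, that is of plus mating type, and carried leu1-32, ade6-210 and ura4-DS/E, marker alleles in genes of leucine, adenine and uracil synthesis. Cells grew at 30 degrees in liquid YEA, a rich medium, and total RNA was labelled with biotin. Whether the arrays came from separate cultures is not stated in the labels, so the spread between them may be technical. Signal is the brightness of a probe set on a linear scale, and the SD over arrays of log2 signal follows each ± (n = 3).

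Fission yeast can make every amino acid of its proteins from ammonia and sugar. Glutamate and glutamine carry the nitrogen, and each of the other amino acids has a chain of enzymes, many of which are named for the auxotrophic mutants that first marked them. Where amino acids run short, kinases of the initiation factor eIF2 set off the general amino acid control, which raises transcription of many such enzymes. Rich medium supplies amino acids from outside, and permeases take them up.

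Most of the amino acid genes gave bright signal in rich medium. Their median log2 signal was 9.61, against 8.22 over all fission yeast genes, which is a signal of 784 against 298. Of the 46 members, 31 (67.4%) lay in the top 25% of signal, 12 lay between, and 3 (6.52%) lay in the bottom 25%, where all genes give 25% at each end by definition. The members with the lowest signal were lys7, met6 and ser2, and the brightest were met26, lys3, gln1, eca39 and met14. Signal also depends on the sequence of the probes, so a place in this order is one of brightness and not of transcript number. These counts and medians describe the list and were not tested against other genes.

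**Figure D1:**
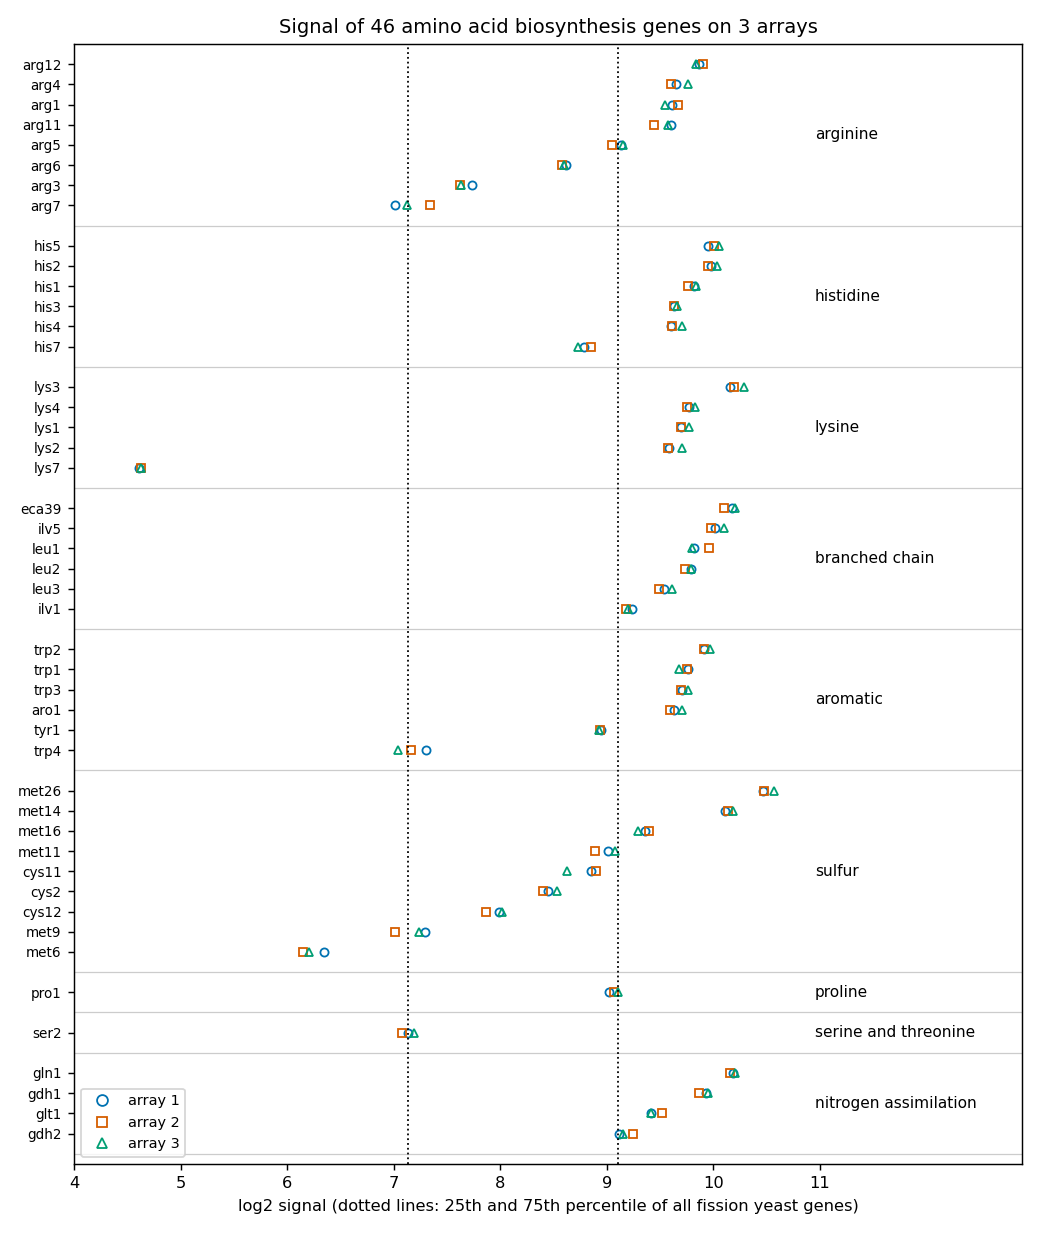
Log2 signal of each of the 46 genes on the 3 arrays (symbols), grouped by pathway and ordered by mean signal within it. Most genes sit right of the upper dotted line at 9.10, the 75th percentile of all fission yeast genes, lys7 and met6 lie left of the lower one at 7.13, the 25th percentile, and the arrays of ser2, arg7, trp4 and met9 fall on both sides of it.

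All 46 members gave signal above background, as did 99.9% of the fission yeast genes tested, so this count says nothing particular of the list. The background limit was the 95th percentile of the probe sets of another yeast on the same array, a signal of 1.20, 1.24 and 1.18 on arrays 1, 2 and 3. The faintest member, lys7, exceeded it by 4.35 on the log2 scale, 20.4-fold, and the brightest, met26, by 10.23. The largest adjusted p of a member was 3.33e-12 by limma, with Benjamini-Hochberg adjustment over all genes.

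The array also carried 53 probe sets of the other yeast whose capitalised symbols share the stems of the list. Their median signal was 0.202, close to the 0.206 of all 2601 probe sets of that yeast. None of the 53 exceeded the limit on all arrays, and 7 did so on at least 1. The brightest were PRO2 at a mean signal of 1.26 and LYS12 at 1.17. The stems alone chose these probe sets, so some may stand for genes other than enzymes of synthesis. The faintest fission yeast member, lys7, at 24.3 to 24.7, lay above all of them.

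**Figure D2:**
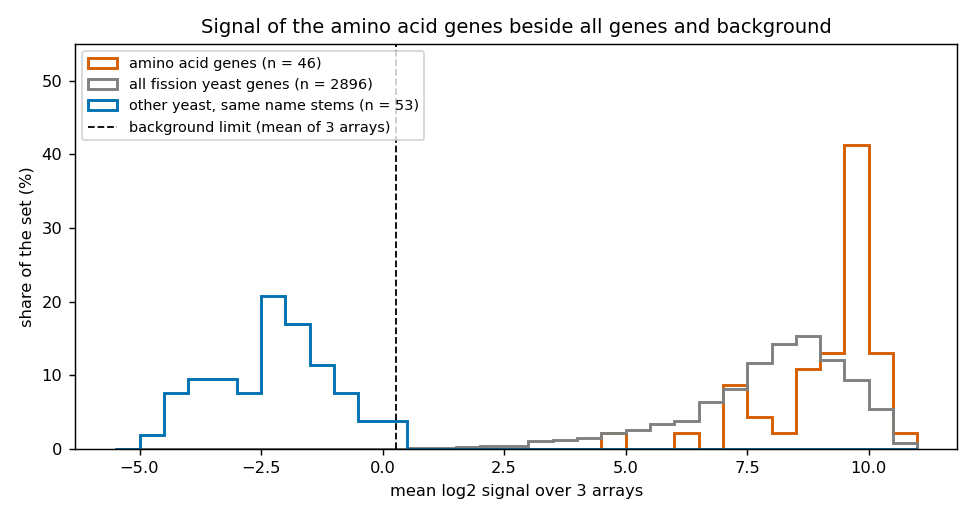
Share of each set by mean log2 signal in bins, for the amino acid genes (n = 46), all fission yeast genes (n = 2896) and other-yeast probe sets that share the name stems (n = 53). The amino acid genes pile up right of the median of all genes, 8.22, while the other yeast's probe sets lie around a median of -2.31, mostly left of the dashed background limit.

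Nitrogen enters these pathways through glutamate and glutamine, and all 4 genes of that group were in the top 25%. Glutamine synthetase, gln1, which joins ammonia to glutamate, gave signals of 1160.4, 1137 and 1179 on arrays 1, 2 and 3 (10.18 ± 0.026). The NADP-dependent glutamate dehydrogenase gene gdh1, which makes glutamate from ammonia, gave 974, 934 and 986 (9.91 ± 0.041). Signals of glt1, which encodes the glutamate synthase that works in turn with gln1, were 683, 732 and 682 (9.45 ± 0.059). The NAD-dependent enzyme gene gdh2, known for breaking glutamate down, gave 552, 606 and 568 (9.17 ± 0.069). The arrays did not share an order here: gln1 and gdh1 were highest on array 3, and glt1 and gdh2 on array 2.

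All 6 genes for the branched-chain amino acids leucine, isoleucine and valine were in the top 25%, from 9.20 to 10.16 on the log2 scale. The branched-chain aminotransferase gene eca39, which acts in the last step of all 3 routes, gave 1154, 1095 and 1179 (10.16 ± 0.055). The reductoisomerase gene ilv5 gave 1034, 1006 and 1095 (10.03 ± 0.062), and the acetolactate synthase gene ilv1, for the step before it, gave 601, 581 and 587 (9.20 ± 0.025). Both were lowest on array 2, as were 5 of the 6 genes of the group. Array 2 was also lowest for 54.3% of the list, 45.9% of all genes in the top 25% and 36.3% of all genes.

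Leucine has its own branch, and leu1 is also the gene of a marker allele in these cells. Signals of leu1, which encodes 3-isopropylmalate dehydrogenase, were 904, 995 and 893 (9.86 ± 0.086), so the transcript was detected on every array of the strain labelled leu1-32. The 2-isopropylmalate synthase gene leu3, for the first step of the branch, gave 742, 718 and 779.6 (9.54 ± 0.059), and the isomerase gene leu2 averaged 9.77 ± 0.033. In the group of 6, leu1 was the 1 gene highest on array 2, where it exceeded the mean of the other arrays by 0.15 on the log2 scale, and its SD was the largest of the group. What leu1-32 does to the transcript cannot be read from these arrays, since a leu1+ strain was not analysed here.

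Lysine is made in fungi by the aminoadipate route, and here 4 of the 5 measured genes were in the top 25% and the fifth was the faintest gene of the whole list. The homocitrate synthase gene lys4, for the first step, gave 873, 863 and 908 (9.78 ± 0.039), and the homoaconitase gene lys2 gave 768, 762 and 833 (9.62 ± 0.071). The aminoadipate reductase gene lys1 gave 829, 828 and 873 (9.72 ± 0.043). For lys3, the saccharopine dehydrogenase gene of the last step, the values were 1139, 1168 and 1247 (10.21 ± 0.067). These enzyme genes were each highest on array 3.

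The exception was lys7, whose product attaches the phosphopantetheine arm that the reductase Lys1 needs and so acts on an enzyme rather than on a metabolite. It gave 24.3, 24.7 and 24.7 (4.62 ± 0.013), a place at the 5.46th percentile of all fission yeast genes. The arrays agreed on it closely, and its SD was smaller than that of any other member except tyr1. The low signal was thus repeated on every array.

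Histidine genes were in the top 25% for 5 of 6 members. The dehydratase gene his5 gave 985, 1028 and 1064 (10.001 ± 0.056), and the histidinol dehydrogenase gene his2, for the final steps, gave 1005, 989.6 and 1046 (9.98 ± 0.042). The ATP phosphoribosyltransferase gene his1, which opens the pathway, gave 901, 867 and 915 (9.80 ± 0.040). The brighter 3 genes thus include those of the first and last steps.

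Lower in the histidine group, the imidazoleglycerol-phosphate synthase gene his4 gave 777, 779.6 and 837 (9.64 ± 0.061), and the aminotransferase gene his3 averaged 9.64 ± 0.018. The faintest was his7, for a bifunctional enzyme of the early steps, at 441, 463 and 425 (8.79 ± 0.061). It was also the 1 histidine gene not highest on array 3: its highest signal was on array 2.

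Arginine genes ran from 7.16 to 9.87 on the log2 scale, with 5 of 8 in the top 25%. The argininosuccinate synthase gene arg12 gave 933, 954 and 914 (9.87 ± 0.032). The acetylornithine aminotransferase gene arg1 gave 782, 813 and 748 (9.61 ± 0.059), and arg4, which encodes the large subunit of carbamoyl-phosphate synthase, gave 804, 777 and 868 (9.67 ± 0.082). Its small-subunit gene arg5 averaged 9.11 ± 0.057, just past the limit of the top 25% at 9.10. Of the genes of the acetylated intermediates, arg11 averaged 9.54 ± 0.085 and the acetylglutamate synthase gene arg6 8.60 ± 0.018.

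The 2 faintest arginine genes act just before and just after the arg12 step. The ornithine carbamoyltransferase gene arg3, before it, gave 212, 197 and 198 (7.66 ± 0.060). The argininosuccinate lyase gene arg7, which releases arginine, gave 129, 162 and 140 (7.16 ± 0.17). The SD of arg7 was the largest of the list: its signal was lowest on array 1 and highest on array 2, 0.33 apart on the log2 scale. It lay just above the bottom 25%, which ends at a signal of 140.5.

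Aromatic amino acids start from the shikimate pathway, and 4 of the 6 measured genes were in the top 25%. The gene aro1, for a protein that carries several shikimate enzymes in a single chain, averaged 9.64 ± 0.057. The tryptophan synthase gene trp2 gave 961, 962 and 1002 (9.93 ± 0.035). The multifunctional gene trp1 gave 869, 862 and 817 (9.73 ± 0.049), and trp3, whose product works with Trp1 as anthranilate synthase, gave 836, 831 and 866 (9.72 ± 0.031). On array 3, trp2 and trp3 had their highest signal and trp1 its lowest.

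The faintest gene of the aromatic group was trp4, for the anthranilate phosphoribosyltransferase that follows anthranilate synthase, at 158, 143 and 131 (7.17 ± 0.13). Its arrays lay 0.26 apart on the log2 scale, with array 1 highest and array 3 lowest. The prephenate dehydrogenase gene tyr1, for the tyrosine branch, gave 492, 491 and 487 (8.94 ± 0.0073), the smallest SD of the list. It lay below the top 25%.

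Sulfur amino acid genes ran from 6.23 to 10.50 on the log2 scale, and 3 of 9 were in the top 25%. The brightest gene of the list, met26, encodes the methionine synthase that methylates homocysteine, and gave 1415, 1422 and 1514 (10.50 ± 0.054), at the 99.3rd percentile of all genes. Genes of sulfate assimilation were bright too: the adenylylsulfate kinase gene met14 gave 1103, 1124 and 1163 (10.14 ± 0.039), and the reductase gene met16 gave 656, 671 and 628 (9.35 ± 0.049). The bright sulfur genes were thus those of sulfate assimilation and of the last step to methionine.

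Other genes of methionine synthesis were fainter. The homoserine acetyltransferase gene met6 gave 81.1, 70.7 and 73.7 (6.23 ± 0.10), in the bottom 25%. The methylenetetrahydrofolate reductase gene met9, which supplies the methyl group, gave 156, 129 and 151 (7.18 ± 0.15), while its paralogue met11 averaged 8.99 ± 0.093. Both met6 and met9 were highest on array 1 and lowest on array 2, and met11 was lowest on array 2 as well. Array 2 was lowest for 5 of the 9 sulfur genes, beside 54.3% of the list and 36.3% of all genes.

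Cysteine genes lay in the middle of the range. Signals of cys11, a cysteine synthase gene, were 462, 477 and 394 (8.79 ± 0.15), and its paralogue cys12 averaged 7.96 ± 0.077. The acetyltransferase gene cys2 averaged 8.46 ± 0.066. The difference of array 3 from the mean of the other arrays was -0.25 on the log2 scale for cys11, while cys12 and cys2 were highest on that array.

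Proline and serine were each represented by 1 gene. The glutamyl phosphate reductase gene pro1 gave 519, 537 and 552 (9.07 ± 0.043), just short of the top 25%. The phosphoserine phosphatase gene ser2, for the last step to serine, gave 141, 135 and 146 (7.13 ± 0.056). It counted in the bottom 25% by a margin far smaller than its SD, and arg7, trp4 and met9 lay just above that limit, so the count of 3 is 2 clear members and 1 at the edge.

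The arrays gave nearly the same values for the members. The median SD was 0.056 over the list and 0.061 over all fission yeast genes. An SD over 0.3 was found for 0 of 46 members, beside 2.0% of all genes. It was also found for 0 of all 724 genes in the top 25%, so this count says nothing particular of the list. The largest difference between 2 arrays for a member was 0.33 on the log2 scale, that of arg7. The next largest SDs were those of cys11, met9, trp4 and met6, and of these 5 only cys11 had a mean signal above the median of all genes. Among the 31 members in the top 25%, the median SD was 0.054, against 0.043 over all 724 genes in the top 25%. With 1 array left out, the median SD of the list was 0.066 without array 1, 0.042 without array 2 and 0.033 without array 3. Each of these is an SD over 2 arrays, and the same is not given here for all genes.

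**Figure D3:**
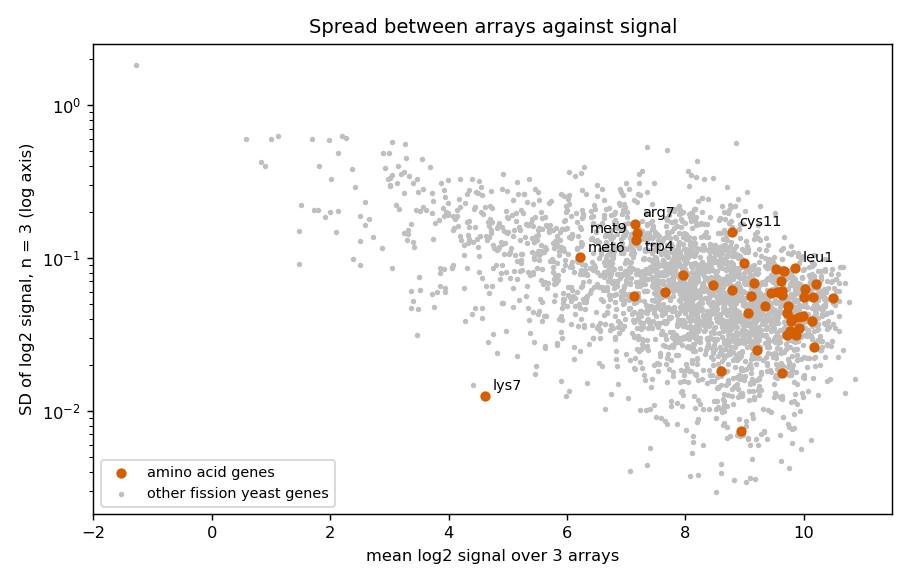
SD of log2 signal over the 3 arrays (log axis) against mean log2 signal, for the amino acid genes (large points) and the other fission yeast genes (small points). The labelled members arg7, cys11, met9, trp4 and met6 have the largest SDs of the list, 0.10 to 0.17, while lys7 combines the lowest signal with an SD of 0.013.

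Array 3 gave the highest signal for 28 of the 46 members (60.9%), against 39.4% of all fission yeast genes. Among all genes in the top 25% of signal the share was 61.3%, and among the 31 members there it was 71%. The median difference of array 3 from the mean of the other arrays was 0.060 for the 31 members in the top 25%, against 0.040 for all genes there, and 0.052 for all 46 members, against 0.010 for all fission yeast genes. Not every bright set had it: the nitrogen assimilation genes were at 0.005 and the 10 ade genes of purine synthesis at -0.019. By pathway, array 3 was highest for all 5 lysine genes and 5 of 6 histidine genes but for 2 of 8 arginine genes.

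**Figure D4:**
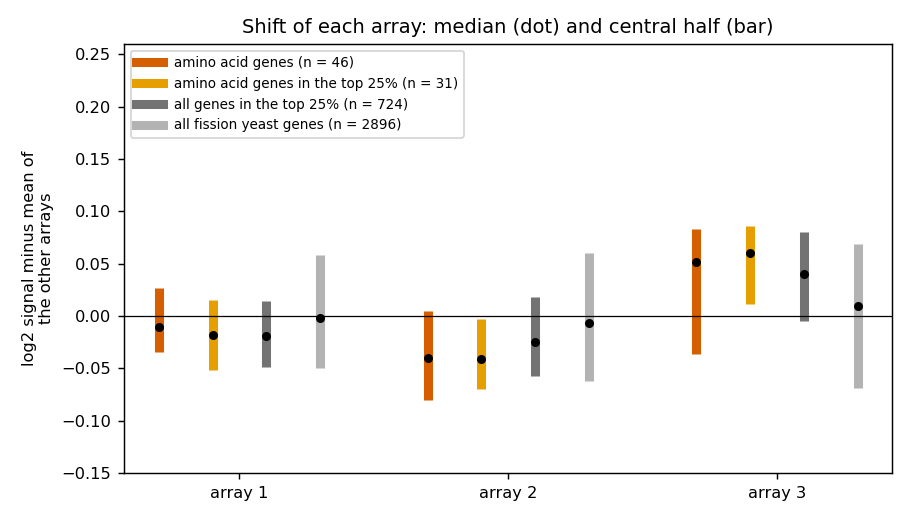
Log2 signal on each array minus the mean of the other arrays, as the median (dot) and the 25th to 75th percentile (bar) of each set. On array 3 the medians are 0.052 for the amino acid genes and 0.060 for those of them in the top 25%, against 0.040 for all genes in the top 25% and 0.010 for all genes.

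Some members lie close together in the gene order of the reference table of assembly ASM294v3. Within 3 steps among protein-coding genes there were 5 pairs, which involve 7 members. Direct neighbours were arg11 and arg3, at 9.54 and 7.66 on the log2 scale, and ilv5 and met6, at 10.03 and 6.23. The gene arg5, at 9.11, lay 2 steps beyond met6, with 1 gene between them. Genes of the branched-chain, sulfur and arginine groups thus lie within 3 steps there. The remaining pair was eca39 and arg12, at 10.16 and 9.87, with 2 genes between them. Both pairs of direct neighbours, and the pair of met6 and arg5, joined a gene in the top 25% to one outside it. In the pairs of eca39 and arg12 and of ilv5 and arg5, both genes were in the top 25%. Of all members, 67.4% were in the top 25%.

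Other genes of amino acid metabolism, from lists drawn up by function, are given beside the members. Of 13 further biosynthesis entries, 1 was the member cys11 under another symbol and 6 others were measured, all 6 of them in the top 25%, with a median of 10.03. The asparagine synthetase gene asn1 gave 10.30 ± 0.082 and the sulfite reductase gene sir1 10.19 ± 0.052, at the top, while the S-adenosylmethionine synthetase gene sam1 at 9.53 ± 0.023 and the serine hydroxymethyltransferase gene shm2 at 9.30 ± 0.070 were lowest. Sulfite reductase acts just after met16, so another sulfate assimilation gene was bright beside met14 and met16.

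Genes of breakdown and transport had lower medians than the list. Of 7 measured breakdown genes, 2 were in the top 25% and 1 in the bottom 25%, with a median of 8.69. The highest were the ornithine aminotransferase gene car2 at 9.93 ± 0.064 and the arginase gene aru1 at 9.78 ± 0.068, and the lowest were the transaminase gene uga1 at 7.40 ± 0.037 and the glycine decarboxylase gene gcv2 at 6.84 ± 0.16. Of 8 transporter genes, none was in the top 25% and 3 were in the bottom 25%, with a median of 7.24. They ran from aat1 at 8.49 ± 0.099 and put4 at 7.79 ± 0.056 to meu22 at 5.58 ± 0.052 and isp5 at 4.08 ± 0.19.

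Of 6 genes listed for the general amino acid control, 3 were measured, all for kinases of eIF2, and none was in the top 25%. The amino acid sensor gene gcn2 gave 8.56 ± 0.062, hri2 8.35 ± 0.083 and hri1 5.13 ± 0.10. By limma every measured gene of these function lists passed the background limit, beside 99.9% of all genes tested.

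Purine and pyrimidine synthesis genes stood near the list in brightness. The 10 ade genes had a median of 9.52 and all were in the top 25%, and the 5 ura genes had a median of 9.78 with 4 in the top 25%, beside 9.61 and 31 of 46 for the amino acid genes. These ade and ura genes include ade6 at 9.14 and ura4 at 9.61, both genes of marker alleles in this strain. What those alleles do to the signal was not tested. The 10 purine genes kept within 9.14 to 9.79, whereas the 46 amino acid genes ran from 4.62 to 10.50. A range can widen with the number of genes. The 6 branched-chain genes ran from 9.20 to 10.16 and the 5 ura genes from 7.58 to 10.03. Array 3 was highest for 2 of the 10 ade genes and 28 of the 46 amino acid genes (60.9%). That share was 39.4% over all genes and 61.3% over all genes in the top 25%. A symbol pattern meant for aminoacyl-tRNA synthetases took 29 genes, with 16 in the top 25%, but it also took trs20, trs31 and other genes that are no synthetases, so it was not compared further. No difference between these sets was tested.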

How the data were processed

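Per the series' design text and the submitters' processing notes, the authors made the deposited linear intensities with MAS5 version 5.0. The file held 10928 probe sets on 3 arrays of wild type cells. Scaling target and filters: not given in the sources used here. After trimming 2% at each end, every array had a mean intensity of 150.0, so no scaling was added and log2 was taken with no pseudocount. The number of arrays limits the precision.

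Probe sets were named through the platform's annotation and the gene table of assembly ASM294v3, which held 2914 single-gene probe sets (2896 genes, by the mean over probe sets). Each member had 1 probe set, none with a suffix for shared probes. Another 2601 probe sets, with capitalised symbols and outside that table, were taken as another yeast's. Log2 signal minus their 95th percentile was tested against 0 in R 4.3.3 by a two-sided test of limma 3.58.1 (eBayes), adjusted after Benjamini-Hochberg over all genes, at a threshold of 0.05. The test was checked only on simulated data in which every gene had the same SD. That check cannot show how the test does where SDs differ between genes, as they do here. Its p-values lean on a variance shared across genes.

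The members and lists were chosen with earlier results of these data known. Signals on each array are given for the 3 highest and 2 lowest members of each pathway (all where there are up to 5), the bottom 25%, the 5 largest SDs and leu1, and values of the function lists for their 2 highest and 2 lowest. As alternatives, quantile normalization, median centring, a pseudocount of 16, each array left out, the highest or single probe sets, no shared probe sets, limits at the 90th and 99th percentiles, a variance trend and shares of 10% were tried.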

Additional observations from a re-analysis of the deposited data

How the results depend on the processing

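All 46 members stayed above background under each of 12 alternatives. With the top 10% in place of the top 25%, 14 members were counted, and with the bottom 10% in place of the bottom 25%, 1 was. Both counts are smaller because the share is smaller. Leaving out each array in turn gave counts of 30 to 31 for the top 25% and of 3 for the bottom 25%, a median log2 signal of 9.59 to 9.62 and a median SD of 0.033 to 0.066. With single probe sets the bottom 25% held 2 members. The median of the sulfur genes was 8.88 without array 3, against 8.79, and ser2 was at 7.29 with a pseudocount of 16, against 7.13, since adding a constant lifts dim genes. No paired analysis was possible because the samples form 1 group. With 3 arrays no test of a single aberrant array was made, and brightness of probes limits any order of genes.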
